A study of Mus musculus with 8 samples.

Results

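Among 8 whole-skin libraries, 3 carried the genes of growing hair at far higher levels than the other 5. They were chosen by that readout: the libraries were ranked by a hair score, the mean log2 CPM (counts per 1000000 counts of the library, after scaling) of the hair keratins and of all genes whose symbol starts with Krtap, and the 3 with the highest score form the hair-growth set. This set holds wild-type replicate 5, NPY-tet replicate 1 and NPY-tet replicate 2, and the resting-hair set holds wild-type replicates 1 to 4 and NPY-tet replicate 3. Each library is the whole skin of 1 male mouse aged 35 weeks that received no treatment. The wild-type mice (NPY +/+) came from the same families as the NPY-tet mice (NPY tet/tet, strain B6;129S4-Npytm2Rpa/J), a line that the series title describes as overexpressing the neuropeptide NPY. No further allele or agent is given for either genotype, and the body site of the skin, the litters and the hair stage of the mice are not given in the sources used here. The names hair-growth and resting-hair therefore rest on RNA levels only. Both sets hold both genotypes, and genotype was a term in the comparison between them.

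Because the hair keratins and Krtap genes chose the libraries, their values are given as a description with no test result. The other genes were measured in the same libraries, so a test of them describes how genes separate these 2 sets and is no independent evidence that hair was growing.

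Hair grows in cycles. In the growth phase (anagen) matrix cells at the base of the follicle, next to the dermal papilla, divide and form the hair shaft, the inner root sheath that moulds it and the companion layer around it, while melanocytes hand pigment to the shaft. In the resting phase (telogen) the lower follicle is gone, and a small bulge and germ of stem cells wait for the next cycle. The shaft is built of hair keratins of type I and type II, which pair into filaments, and of keratin-associated proteins (the Krtap genes), which cross-link them. Transcription of shaft genes in the matrix is known to depend on Wnt signals through Lef1, on Foxn1, Msx2 and Hoxc13, and dermal adipose tissue is known to thicken and thin over the cycle.

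The start regions of 4 of the marker genes are shown because LEF and TCF factors are known to bind hair keratin promoters. Each is the 250 bases before the transcription start, 5′ to 3′ on the gene's strand, from RefSeq (GRCm38.p6): Krt33b at chr11:100029869-100030118 (minus strand), Krt32 at chr11:100088270-100088519 (minus), Krtap8-1 at chr16:89487953-89488202 (minus) and Krtap15 at chr16:88828759-88829008 (plus). Capitals mark CTTTGAA on either strand, a word of the LEF and TCF type, and TATAAA on the gene's strand within the last 50 bases. The 2 words cannot overlap.
Krt33b: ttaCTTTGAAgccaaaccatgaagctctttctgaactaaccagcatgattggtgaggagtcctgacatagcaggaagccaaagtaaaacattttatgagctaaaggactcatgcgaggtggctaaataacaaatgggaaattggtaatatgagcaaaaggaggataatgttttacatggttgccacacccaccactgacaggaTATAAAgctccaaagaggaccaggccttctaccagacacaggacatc
Krt32: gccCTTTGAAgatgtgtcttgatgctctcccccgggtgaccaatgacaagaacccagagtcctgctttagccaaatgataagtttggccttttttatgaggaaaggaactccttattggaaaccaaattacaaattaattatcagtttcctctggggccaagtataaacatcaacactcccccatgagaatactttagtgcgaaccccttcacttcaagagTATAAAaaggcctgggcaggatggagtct
Krtap8-1: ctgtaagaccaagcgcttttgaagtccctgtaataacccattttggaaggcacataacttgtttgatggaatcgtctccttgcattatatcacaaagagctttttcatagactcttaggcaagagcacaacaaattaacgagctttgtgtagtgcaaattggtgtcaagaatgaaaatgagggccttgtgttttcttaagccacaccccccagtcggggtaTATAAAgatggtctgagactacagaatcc
Krtap15: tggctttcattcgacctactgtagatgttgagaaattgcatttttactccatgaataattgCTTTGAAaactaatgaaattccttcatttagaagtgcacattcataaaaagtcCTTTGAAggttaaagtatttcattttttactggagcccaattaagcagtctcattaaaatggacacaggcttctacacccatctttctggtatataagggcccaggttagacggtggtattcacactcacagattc
Krt33b and Krt32 held CTTTGAA 1 time each, starting 247 bases before the start, Krtap15 held it 2 times and Krtap8-1 not at all. TATAAA was present in Krt33b, Krt32 and Krtap8-1. Of the 58 hair keratin and Krtap genes measured, 46 matched the table by symbol. Their 46 windows held CTTTGAA in 26.1% and TATAAA in 67.4%, and both in 17.4%. Over all 32851 windows of the table the shares were 4.46%, 2.63% and 0.152%. Paralogs share sequence, so the 46 windows are not independent. These are matches of letters and not sites of binding, and no binding was measured here.

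The libraries held 31370433 to 47495565 counts, and 18495 of 56748 genes had enough counts to be tested. Npy read 0.159 to 0.501 CPM in the 5 wild-type libraries and 299.5 to 321.1 CPM in the 3 NPY-tet libraries, so no genotype label went against the targeted gene. Ribosomal RNA took 6.44% to 8.07% of the counts in 5 libraries and 0.0388% to 0.0753% in the other 3, and each hair set holds libraries of both kinds. NPY-tet replicate 1 stood apart within the hair-growth set in several gene groups, and its values are given beside them.

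The hair score was 4.19 in wild-type replicate 5, 3.40 in NPY-tet replicate 2 and 2.00 in NPY-tet replicate 1. Just outside the set came wild-type replicate 1 at -1.23 and NPY-tet replicate 3 at -1.33, and then wild-type replicates 3, 4 and 2 at -3.11, -3.47 and -3.60. The resting-hair set was thus not uniform: 2 of its libraries stood between the hair-growth set and the other 3. Summed over the 58 measured genes, hair keratins and Krtap genes reached 2210, 1672 and 486.8 CPM in wild-type replicate 5 and the NPY-tet replicates 2 and 1. The sums were 91.7 CPM in NPY-tet replicate 3 and 51.6 CPM in wild-type replicate 1, against 9.77 to 12.7 CPM in wild-type replicates 2 to 4. NPY-tet replicate 1, the lowest of the hair-growth set, was 5.31-fold above NPY-tet replicate 3. In bulk skin, fewer cells of a type and less RNA per cell cannot be told apart, and this holds for every gene group below.

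**Figure D1:**
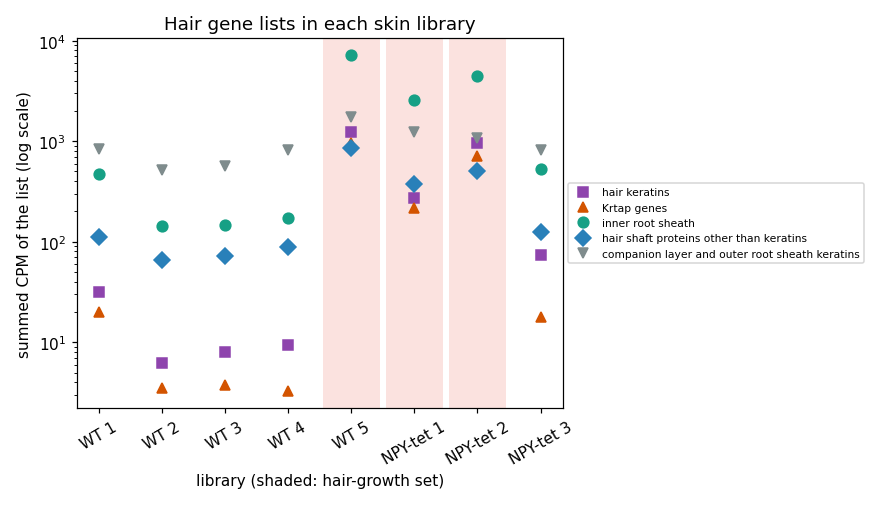
Summed CPM (log axis) of 5 hair gene lists in each of the 8 libraries, with the hair-growth set shaded. Hair keratins and Krtap genes, which chose the set, and the inner root sheath list were highest in wild-type replicate 5, and wild-type replicate 1 and NPY-tet replicate 3 lay between the set and the other 3 libraries.

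The 6 marker genes were higher in each hair-growth library than in any resting-hair library. Krt33b, a type I hair keratin of the shaft cortex, read 83.3, 15.4 and 94.4 CPM in the hair-growth set (wild-type replicate 5, then NPY-tet replicates 1 and 2). In the resting-hair set it read 1.30, 0, 0.0670 and 0.0999 CPM in wild-type replicates 1 to 4 and 5.74 CPM in NPY-tet replicate 3. The 2 intermediate libraries thus carried nearly all of its resting-hair reads. Krt32, the type I keratin of the cuticle, read 35.0, 18.8 and 19.9 CPM against 4.73 to 7.35 CPM, the smallest separation among the marker keratins. Krtap8-1 read 62.4, 34.3 and 126 CPM against 0 to 2.25 CPM, and Krtap15 66.0, 11.5 and 80.0 CPM against 0 to 2.00 CPM. Msx2 and Lef1, transcription factors of the matrix, are described below with their family.

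The file held 73 hair keratin and Krtap genes, of which 15 hair keratins and 43 of 58 Krtap genes had enough counts. Krt85 was not analysed here. The filter kept genes on their counts, most of which came from the hair-growth set. All 58 were higher in that set without overlap, against 6.54% of the other genes tested, which is part of how the libraries were chosen and no finding. By position the 58 form few clusters (mm39). The 9 type I hair keratins lay on chromosome 11 between 99404940 and 99996452, with 19 Krtap genes inside the same stretch (99440956 to 99884820). The 6 type II hair keratins lay on chromosome 15 between 101328919 and 101459102. A further 17 Krtap genes lay on chromosome 16 between 88407593 and 89368071, and the remaining 7 on chromosomes 10, 1 and 7. Paralogous Krtap genes share sequence, and the counting could divide reads among them, so single Krtap values are less certain than their sums.

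Per gene length, the levels were led by small keratin-associated proteins rich in glycine and tyrosine. In the deposited FPKM (fragments scaled to gene length and library size) Krtap7-1 averaged 153.7 and Krtap8-1 127.8 over the hair-growth set, followed by Krtap11-1 at 79.1 and Krtap22-2 at 59.1. The leading keratins were Krt83 at 58.7, Krt35 at 52.5 and Krt31 at 51.2 FPKM. Krt35, a type I keratin that is switched on early in matrix and cuticle, read 26.5 CPM in NPY-tet replicate 3 and 8.50 CPM in wild-type replicate 1, the intermediate libraries, against 0.0506 to 0.540 CPM in wild-type replicates 2 to 4. Its set means differed 17.7-fold, against 44.7-fold for Krt33b and 79.2-fold for Krtap8-1.

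The make-up of the shaft genes was alike in the 3 hair-growth libraries in some classes and not in others. Type I hair keratins took 30.1%, 34.6% and 31.2% of the summed hair gene CPM in wild-type replicate 5 and the NPY-tet replicates 1 and 2, and type II hair keratins 26.3%, 21.2% and 26.6%. High glycine-tyrosine Krtap genes took 14.4%, 16.8% and 17.0%, and high-sulphur Krtap genes 17.8%, 17.1% and 16.9%. Ultra-high-sulphur Krtap genes are made late in the cuticle and cortex. The class drawn under that name here had 15 members, with Krtap10-4, Krtap10-10 and Krtap12-1 counted in. It took 8.30% and 7.50% in wild-type replicate 5 and NPY-tet replicate 1 and 4.06% in NPY-tet replicate 2. Its sum was 183.5, 36.5 and 67.9 CPM. If these Krtap10 and Krtap12 genes were counted as high-sulphur, the shares of both classes would differ. Of the 58 genes, 49 were highest in wild-type replicate 5 and 9 in NPY-tet replicate 2, and 52 were lowest of the 3 in NPY-tet replicate 1. With 1 library each, none of these differences was tested. In the resting-hair set 37 of the 58 genes were higher in both intermediate libraries than in the other 3. No reads at all were counted for 4 of the 58 genes in wild-type replicate 1 and for 11 in NPY-tet replicate 3, against 33 to 43 in wild-type replicates 2 to 4.

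Among the 18437 genes tested that took no part in choosing the set, 188 were higher and 37 lower in the hair-growth set (edgeR quasi-likelihood test, adjusted p under 0.05, genotype in the fit), which is 1.02% and 0.201%. The adjustment ran over all 18495 genes tested, so it included the 58 that chose the set. Their p-values, set in part by that choice, can lower the adjusted p of the other genes, and an adjustment without them was not run. These genes too were kept by a filter on counts. A gene near 0 in the resting-hair set could pass it only through the hair-growth set, here and in the lists below. For such a gene the call and its p-value are a description and no support, and their number was not counted. Of the 188, 54 were predicted genes, clones or pseudogenes, and 134 were other named genes. By unadjusted p under 0.05 the counts were 1090 higher and 1177 lower. A log2 difference of at least 1 was seen in 155 of the 188, and of -1 or less in 18 of the 37. These calls needed wild-type replicate 5, the library with the highest hair score: without it 0 genes were called, and every count of calls in the lists below was 0. It is the only wild-type library of the hair-growth set. With genotype in the fit, leaving it out rests the comparison on 2 NPY-tet hair-growth libraries against 1 NPY-tet resting-hair library. Of the 225 genes called in the main fit, 161 had enough counts to be tested without it. The parts of its own values, of this loss and of the genes not tested in the 0 cannot be told apart. This holds here and wherever wild-type replicate 5 is left out below. Without wild-type replicate 1 and NPY-tet replicate 3, the 2 intermediate libraries, 201 were called higher and 10 lower. Without wild-type replicate 2, 113 were called higher and 11 lower. The number called lower was 21 without wild-type replicate 1 and also without wild-type replicate 3, 13 without wild-type replicate 4, and 20 and 17 without NPY-tet replicates 2 and 3. Without NPY-tet replicate 1, 265 were called higher and 30 lower. Another simple count is how many of the same genes did not overlap between the sets: 6.54% were higher in each hair-growth library than in any resting-hair library, and 6.36% were lower. The median log2 difference of the 18437 genes was -0.000404. The 6.54% and 6.36% are the shares to read beside every count without overlap in the lists below.

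**Figure D2:**
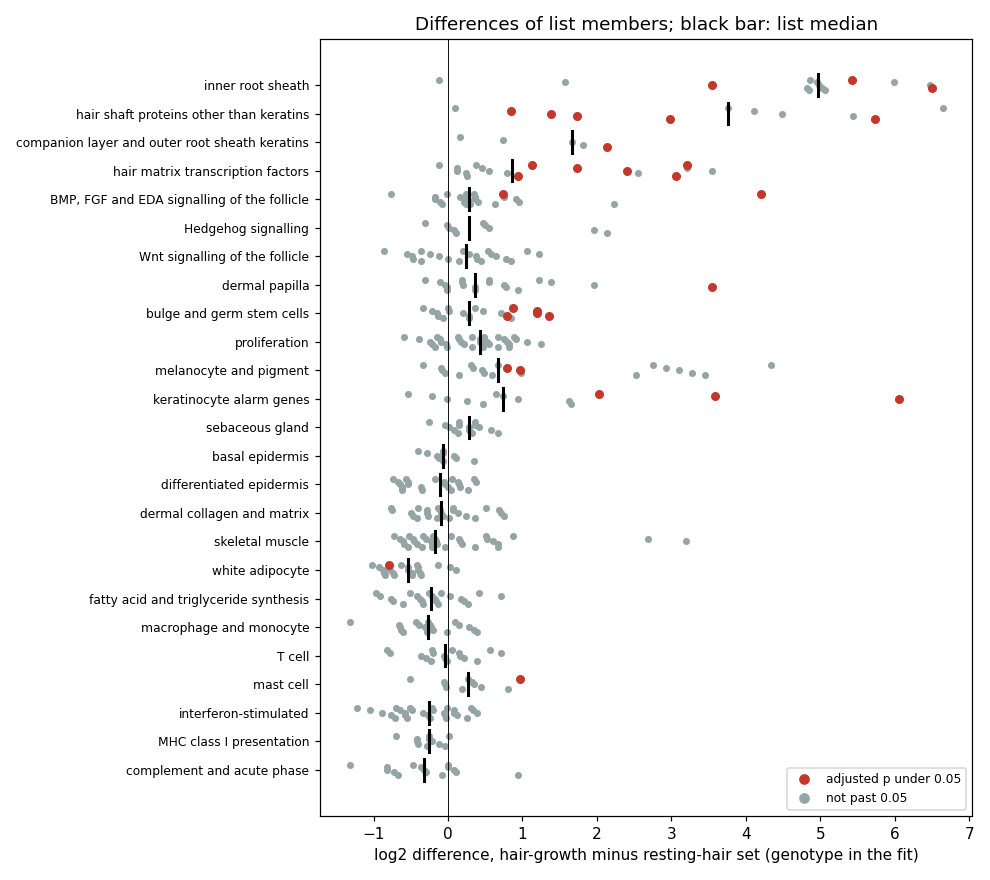
Each point is 1 gene of the list named at the left, placed by its log2 difference between the sets with genotype in the fit; red points passed an adjusted p of 0.05 and black bars are list medians. The medians fell from 4.97 for the inner root sheath to -0.54 for white adipocyte genes, and most red points lay in the follicle lists.

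The inner root sheath genes separated the sets as the shaft genes did, at higher sums. The 14 measured genes summed to 2586 to 7253 CPM in the hair-growth set and 142.5 to 524.3 CPM in the resting-hair set. The median log2 difference was 4.97, 12 of 14 were higher without overlap, and 3 passed the test, all higher (1 when wild-type replicate 3 was left out and 1 when NPY-tet replicate 2 was, and 2 when replicate 1 of either genotype was). Tchh, trichohyalin, the granule protein that hardens the sheath and the medulla, read 1671, 664 and 1236 CPM in the hair-growth set. It read 81.8 and 79.6 CPM in the 2 intermediate libraries and 4.00 to 5.82 CPM in wild-type replicates 2 to 4. Its difference was 5.03 ± 1.41 (log2, SE), with an edgeR adjusted p of 0.245. Krt27, a type I keratin of the sheath, read 888, 297 and 425 CPM, then 42.3 and 37.4 CPM in the intermediate libraries and 0.0506 to 0.503 CPM in the other 3. Krt72, a type II partner, read 434, 106 and 105 CPM against 9.29 and 6.98 CPM, and 0.0200 to 0.872 CPM. Within the resting-hair set, 12 of the 14 genes were higher in both intermediate libraries than in the other 3.

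Of the 3 sheath genes that passed, Tchhl1, a relative of trichohyalin, read 61.6, 17.6 and 25.3 CPM against 0.0800 to 1.36 CPM, a log2 difference of 6.51 ± 0.80 (edgeR adjusted p = 0.0181). Padi1, a peptidylarginine deiminase, an enzyme that turns arginine of sheath proteins into citrulline, read 31.1, 11.8 and 11.9 CPM against 0.0600 to 0.920 CPM (5.42 ± 0.81; edgeR adjusted p = 0.0303). Krt74, a further sheath keratin, was the third. Padi3, the deiminase known for trichohyalin, read 145, 51.3 and 80.6 CPM against 0.228 to 7.55 CPM and did not pass (edgeR adjusted p = 0.227).

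Of 11 hair shaft proteins that are not keratins, 10 were higher without overlap and 5 passed, all higher, with a median log2 difference of 3.76 (2.28 without wild-type replicate 5). The number that passed was 1 without wild-type replicate 2 and 3 when wild-type replicates 1 or 4 were left out, as when NPY-tet replicate 2 was. Dsg4, the desmoglein that joins shaft cells, read 19.1, 6.72 and 8.64 CPM against 0.0200 to 0.606 CPM (5.73 ± 0.72; edgeR adjusted p = 0.00828). Padi4 read 22.4, 9.94 and 10.2 CPM against 1.02 to 3.17 CPM (2.99 ± 0.45; edgeR adjusted p = 0.0133). Dlx3, a homeobox factor of matrix and shaft, read 103, 49.2 and 69.7 CPM against 15.8 to 29.5 CPM (1.74 ± 0.29; edgeR adjusted p = 0.0282). Dsc2 and Hephl1 were the other 2 that passed. Gprc5d, an orphan receptor of hair-forming cells, read 66.6, 11.3 and 35.7 CPM against 0 to 1.07 CPM, a difference of 6.64 ± 1.23 that missed the threshold (edgeR adjusted p = 0.0973). S100a3, a calcium-binding protein of the cuticle, read 95.7, 35.0 and 82.0 CPM, with 12.0 CPM in NPY-tet replicate 3 and 0.304 to 3.65 CPM in the other resting-hair libraries.

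Keratins of the companion layer and outer root sheath, several of which are also made in resting follicles and stressed epidermis, had a median of 1.66 (0.895 without wild-type replicate 5). All 5 had a difference above 0 and 4 were higher without overlap. Krt75, the companion layer keratin, read 250, 108 and 166 CPM against 33.3 to 75.3 CPM and was the 1 that passed (2.13 ± 0.31; edgeR adjusted p = 0.0132). Without NPY-tet replicate 2, 3 of the 5 passed, and without NPY-tet replicate 3, 2 did. Krt6a read 260, 140 and 110 CPM against 36.0 to 73.4 CPM, and Krt17 1213, 965 and 790 CPM against 437 to 713 CPM.

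Of 18 matrix transcription factors measured, 6 passed, all higher (Msx2, Hoxc13, Elf5, Dlx3, Foxn1 and Vdr), 11 were higher without overlap, and the median difference was 0.86 (0.553 without wild-type replicate 5). The number that passed was 4 without wild-type replicate 1, 2 without wild-type replicate 2 or 4, and 3 without NPY-tet replicate 2. Msx2, a homeobox factor that maintains shaft differentiation, read 27.6, 10.8 and 29.3 CPM in the hair-growth set. In the resting-hair set it read 5.07, 2.46, 3.02 and 3.28 CPM in wild-type replicates 1 to 4 and 6.40 CPM in NPY-tet replicate 3. The difference was 2.40 ± 0.41 (edgeR adjusted p = 0.0303). Hoxc13, which activates hair keratin genes, read 41.2, 17.6 and 26.9 CPM against 1.42 to 4.41 CPM (3.21 ± 0.39; edgeR adjusted p = 0.00583). Elf5, an Ets factor, read 11.9, 3.84 and 5.12 CPM against 0.469 to 1.47 CPM (3.06 ± 0.43; edgeR adjusted p = 0.00544).

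Foxn1, the nude gene product that drives matrix differentiation and pigment transfer, read 34.7, 14.3 and 21.2 CPM against 9.62 to 13.9 CPM (1.13 ± 0.22; edgeR adjusted p = 0.0295). Its lowest hair-growth value, in NPY-tet replicate 1, was close to its highest resting-hair value. Lef1, the Wnt-responsive factor of precortex and matrix and the last of the markers, read 11.6, 3.97 and 11.6 CPM against 2.12, 0.608, 0.268, 0.920 and 3.26 CPM. Its groups did not overlap, but NPY-tet replicates 1 and 3 lay close together, and the difference of 2.56 ± 0.71 missed the threshold (edgeR adjusted p = 0.182).

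**Figure D3:**
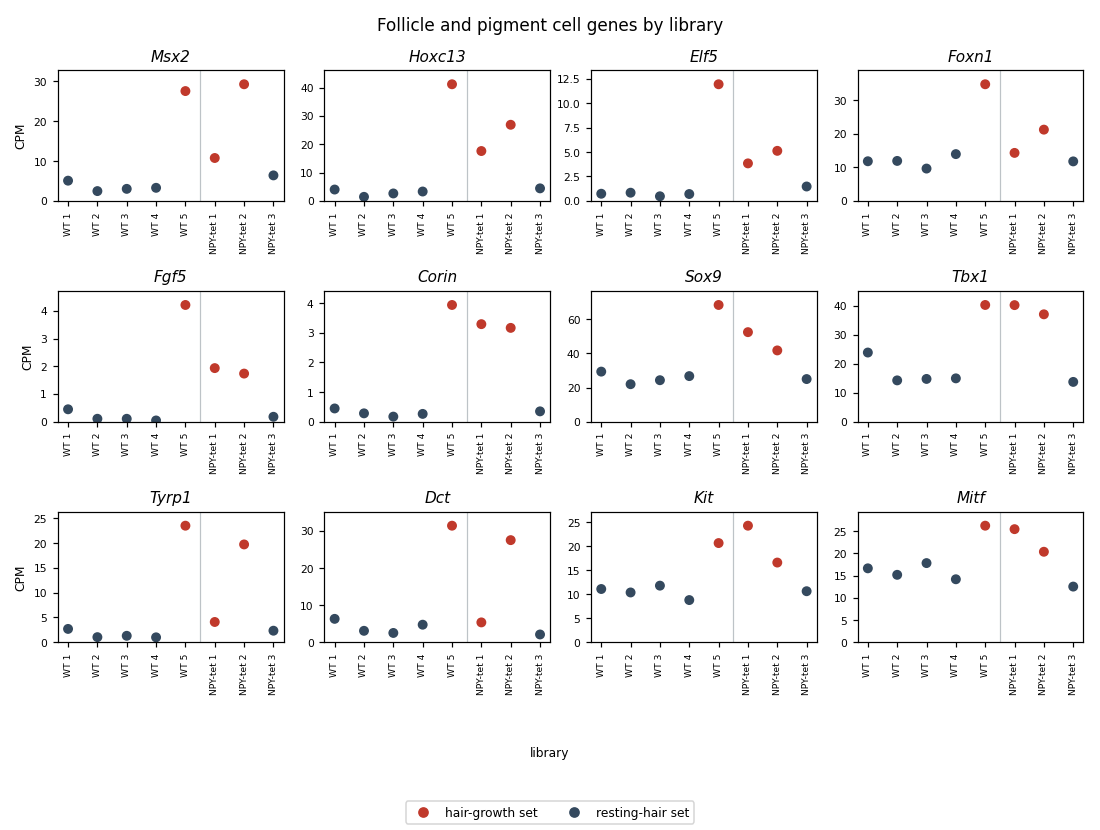
CPM of 12 genes in each library, with the hair-growth set in red, the resting-hair set in dark blue and a grey line between the genotypes. Hoxc13, Corin, Sox9 and Kit were higher in each red library, while Tyrp1 and Dct in NPY-tet replicate 1 sat near the resting-hair values.

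Of 26 BMP, FGF and EDA pathway genes 2 passed, both higher, and 7 were higher and 1 lower without overlap (median 0.28). The number that passed was 1 when wild-type replicates 1 or 2 were left out, as when NPY-tet replicate 2 was, and 3 without NPY-tet replicate 1. Fgf5, the ligand known to end the growth phase, read 4.21, 1.93 and 1.73 CPM against 0.0400 to 0.444 CPM, a difference of 4.20 ± 0.62 (edgeR adjusted p = 0.00526). Sostdc1, a secreted inhibitor of BMP and Wnt signals, read 26.6, 21.1 and 25.3 CPM against 13.3 to 17.5 CPM (0.75 ± 0.15; edgeR adjusted p = 0.0282). Among the ligands that did not pass, Bmp2 read 19.7, 15.8 and 16.8 CPM against 10.3 to 12.3 CPM, and Bmp8a 2.94, 1.26 and 2.14 CPM against 0.190 to 0.836 CPM. Hgf, a growth factor of dermal papilla cells, was the member lower without overlap, at 0.635 to 1.06 CPM against 1.08 to 1.40 CPM.

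None of 10 Hedgehog and none of 22 Wnt pathway genes passed in either direction, but 2 Wnt genes were called higher without NPY-tet replicate 1 and 1 Hedgehog gene without wild-type replicate 1. Shh, the matrix ligand that drives follicle growth, was scarce: 1.54, 0.850 and 4.20 CPM against 0.0506 to 0.698 CPM. Its targets Ptch1 and Hhip were higher without overlap, Hhip at 1.94, 1.78 and 2.11 CPM against 0.253 to 0.698 CPM (1.96 ± 0.43; edgeR adjusted p = 0.0518). Gli1, a further target, overlapped, with 12.6, 9.25 and 19.4 CPM against 4.59 to 13.8 CPM. In the Wnt list Wnt11, Notum, Dkk2 and Dkk3 were higher without overlap and Wnt3a and Sfrp2 lower. Dkk2, a secreted Wnt inhibitor, read 5.99, 9.68 and 5.99 CPM against 2.48 to 4.78 CPM. Sfrp2, another secreted inhibitor, read 16.1, 5.46 and 16.9 CPM against 17.6 to 60.6 CPM.

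Dermal papilla genes were few in reads but separated cleanly in Corin. This protease, a marker of the growth-phase papilla that also affects coat colour, read 3.95, 3.30 and 3.17 CPM in the hair-growth set. It read 0.444, 0.279, 0.168, 0.260 and 0.346 CPM in wild-type replicates 1 to 4 and NPY-tet replicate 3. Unlike the shaft genes, Corin was at a similar level in all 3 hair-growth libraries and was low in both intermediate libraries, and its difference of 3.54 ± 0.37 (edgeR adjusted p = 0.000751) was the 1 of 19 in the list to pass. The list as a whole had 6 members higher without overlap and none lower, with a median of 0.36 (0.574 without wild-type replicate 5). Without wild-type replicate 1, 2 of the list passed. Rspo4, a Wnt amplifier, read 4.85, 2.24 and 2.49 CPM against 0.987 to 2.00 CPM, and Alx4, a homeobox factor, 2.88, 2.29 and 3.63 CPM against 1.14 to 1.99 CPM. Neither passed (edgeR adjusted p = 0.0696 and 0.202).

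The 19 bulge and germ stem cell genes had a median difference of 0.29 (0.0546 without wild-type replicate 5 and 0.461 without NPY-tet replicate 3), and 5 had a difference below 0. Their sums overlapped, at 4451 to 4937 CPM in the hair-growth set and 3983 to 5717 CPM in the resting-hair set. Of the 19, 5 passed, all higher, and they are transcription factors. The number was 3 without wild-type replicate 2, and also 3 if NPY-tet replicate 3 was dropped. Sox9, the factor of bulge and outer root sheath, read 68.5, 52.5 and 41.8 CPM against 29.3, 21.9, 24.3, 26.7 and 25.0 CPM (1.20 ± 0.16; edgeR adjusted p = 0.00285). Tbx1, a T-box factor of the bulge, read 40.3, 40.3 and 37.1 CPM against 13.7 to 23.9 CPM (1.36 ± 0.20; edgeR adjusted p = 0.00516). Runx1 read 24.5, 21.0 and 15.4 CPM against 8.04 to 12.3 CPM (1.20 ± 0.18; edgeR adjusted p = 0.00663). Foxc1 (0.88 ± 0.16; edgeR adjusted p = 0.0187) and Lhx2 (0.79 ± 0.16; edgeR adjusted p = 0.0312) were the others. Foxc1 did not overlap between the sets, at 31.1 to 35.4 CPM against 15.6 to 20.8 CPM. Lhx2 did, since NPY-tet replicate 1 at 25.2 CPM was below wild-type replicate 1 at 25.4 CPM. Lgr5, the receptor of the germ, read 21.7, 9.17 and 15.3 CPM against 4.29 to 12.9 CPM.

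Cell division genes did not follow the hair score in all 3 libraries. None of 34 passed, none was higher without overlap, and 1, E2f1, was lower without overlap. Mki67 read 22.0 and 25.1 CPM in wild-type replicate 5 and NPY-tet replicate 2, but 5.33 CPM in NPY-tet replicate 1, below all 5 resting-hair libraries (6.88 to 13.3 CPM). Top2a, the topoisomerase of dividing cells, gave 28.4 and 28.8 CPM, 7.73 CPM, and 12.2 to 14.9 CPM in the same order. The mean log2 CPM of the 34 genes was 3.70 and 3.87 in wild-type replicate 5 and NPY-tet replicate 2, 2.49 in NPY-tet replicate 1, and 3.12 to 3.26 in the resting-hair set. The list median was 0.43, and 0.646 without NPY-tet replicate 1 and 0.135 without NPY-tet replicate 2. With NPY-tet replicate 1 left out, 7 of the 34 were called higher.

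Pigment genes were higher in the same 2 libraries and near or within the resting range in NPY-tet replicate 1. Of 21 measured, 2 passed, both higher, and 5 were higher without overlap, with a median of 0.68. Without NPY-tet replicate 1, 10 of 24 were called higher (median 0.81), and without NPY-tet replicate 2, 3 were. None passed when wild-type replicate 2 was left out, nor without NPY-tet replicate 3 (median 1.22) or without both intermediate libraries (median 1.26), and 1 passed without wild-type replicate 1 or 4. Tyrp1, an enzyme of melanin synthesis, read 23.5, 4.09 and 19.7 CPM in the hair-growth set and 1.00 to 2.70 CPM in the resting-hair set (3.28 ± 0.62; edgeR adjusted p = 0.0619). Dct, dopachrome tautomerase, read 31.4, 5.36 and 27.5 CPM against 2.10 to 6.31 CPM, so that NPY-tet replicate 1 lay within the resting range. Pmel, the fibril protein of pigment granules, did the same at 23.4, 3.27 and 28.1 CPM against 1.21 to 6.34 CPM. Tyr, tyrosinase, read 5.55, 0.773 and 5.64 CPM against 0 to 0.519 CPM.

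Both pigment genes that passed were regulators, and in NPY-tet replicate 1 they were as high as in the rest of the set. Kit, the receptor that melanocytes need, read 20.7, 24.3 and 16.6 CPM against 8.80 to 11.8 CPM (0.96 ± 0.18; edgeR adjusted p = 0.0236). Mitf, the master transcription factor of melanocytes, read 26.2, 25.5 and 20.4 CPM against 12.5 to 17.8 CPM (0.79 ± 0.16; edgeR adjusted p = 0.0295). Mast cells express both as well. The mast cell list, 11 genes, had 1 call, Kit itself, which was lost without wild-type replicate 2, and also if NPY-tet replicate 3 was dropped. Its summed level was 133.4 to 213.3 CPM in the hair-growth set and 151.1 to 202.0 CPM in the resting-hair set. NPY-tet replicate 1 had the highest mean log2 CPM of this list, 3.44 against 2.51 to 2.81 in the other 7 libraries. The part of mast cells in the Kit and Mitf differences was not tested.

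**Figure D4:**
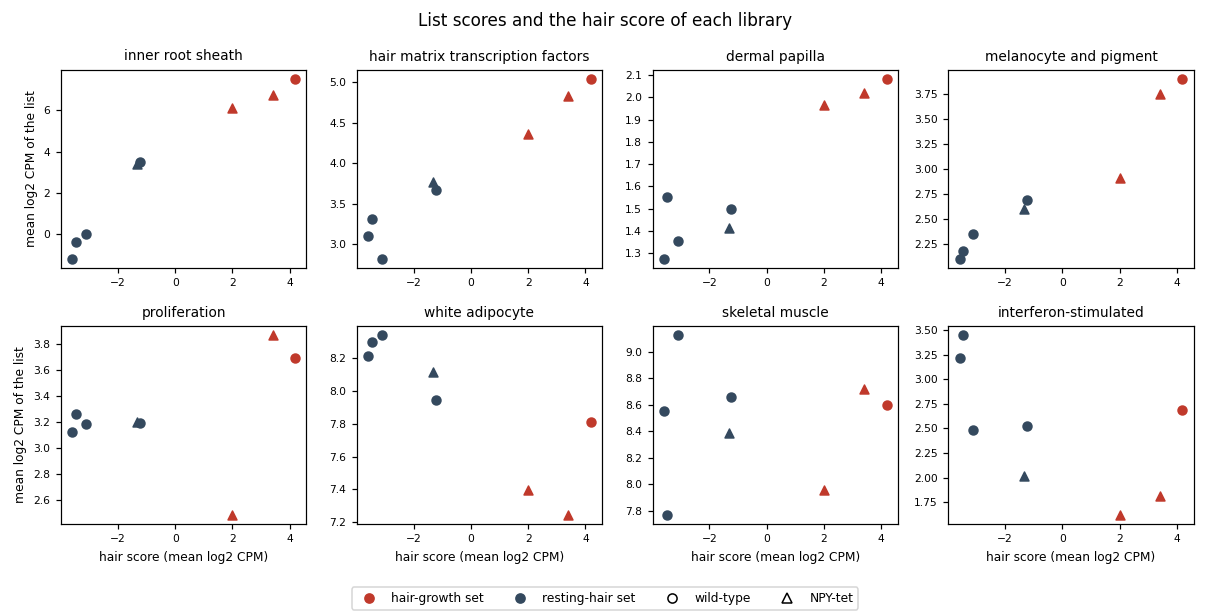
Mean log2 CPM of 8 lists (y axes) against the hair score of each library (x axes), with circles for wild-type and triangles for NPY-tet mice. Sheath, matrix and papilla lists separated the sets, the proliferation score of NPY-tet replicate 1 was the lowest of all 8, and white adipocyte scores were lower in each hair-growth library.

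White adipocyte genes were lower in sum in hair-growth skin. The 23 measured genes summed to 7824 to 11730 CPM in the hair-growth set and 12420 to 17760 CPM in the resting-hair set, without overlap. The median log2 difference was -0.54, 21 of 23 were below 0, 10 were lower without overlap, and 1 passed. Without wild-type replicate 5 the median was -0.896. With DESeq2, and also with no filter on low counts, 8 of 23 were called lower, and 6 with no genotype term, while none was called when wild-type replicates 2 or 4, or NPY-tet replicates 2 or 3, were left out singly. Lep, leptin, read 381, 240 and 222 CPM in the hair-growth set. It read 414, 541, 633 and 595 CPM in wild-type replicates 1 to 4 and 724 CPM in NPY-tet replicate 3. The difference was -1.02 ± 0.24 (edgeR adjusted p = 0.0733). Adipoq, adiponectin, read 462, 263 and 272 CPM against 524 to 801 CPM (-0.92 ± 0.21; edgeR adjusted p = 0.0696). Retn, resistin, which passed, read 83.8, 48.4 and 57.1 CPM against 103 to 148 CPM (-0.79 ± 0.15; edgeR adjusted p = 0.0250). In both genotypes the hair-growth libraries were the lower ones for these 3 genes, but wild-type replicate 5 was closest to the resting range.

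Of 22 lipid synthesis genes measured, none passed, 6 were lower and 1 was higher without overlap, and the median was -0.24. Scd1, the stearoyl-CoA desaturase, read 2530, 1416 and 2689 CPM against 3406 to 5195 CPM (-0.77 ± 0.27; edgeR adjusted p = 0.259). Dgat2, which makes triglycerides, read 785, 338 and 515 CPM against 898 to 1341 CPM. In the wild-type libraries alone the list's median was -0.0136, and without the 2 intermediate libraries -0.0229, and without NPY-tet replicate 3 alone -0.00631. Without NPY-tet replicate 1, 1 of the list was called higher. Neither thermogenic genes (9 measured, median 0.07, and -0.212 to 0.337 over each library left out) nor adipocyte progenitor genes (12 measured, median -0.03, and -0.094 to 0.0213) held a call. The progenitor genes Ly6a and Ebf2 were lower without overlap, where the share of the 18437 genes was 6.36%.

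Skeletal muscle genes did not separate the sets. Whole skin includes the thin panniculus muscle, and the 33 measured genes summed to 57150 to 83940 CPM in the hair-growth set and 53040 to 128900 CPM in the resting-hair set. None passed, and none was without overlap in either direction (median -0.17, and -0.327 to -0.0585 when each library was left out in turn). Without wild-type replicate 3, 1 of the 33 was called higher. Pvalb, parvalbumin of fast fibres, read 2060, 750 and 2026 CPM against 1982 to 4205 CPM. Myh1, a fast myosin, read 1402, 1534 and 1263 CPM against 397 to 1361 CPM, so genes of the same tissue lay on opposite sides. Ankrd1, a stress gene of muscle, read 13.8 CPM in NPY-tet replicate 1 and 0 to 0.623 CPM in the other 7 libraries. Smooth muscle genes, 12 measured, held no call, and their median was 0.07 (-0.0923 to 0.256 over each library left out). Of them Itga8 was higher without overlap.

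Of 24 dermal collagen and matrix genes, none passed. Loxl1 and Mfap5 were lower without overlap, 2 of 24 against 6.36% of the 18437 genes. NPY-tet replicate 1 stood apart from the rest: the list summed to 4448 CPM there, and to 31220 and 23120 CPM in wild-type replicate 5 and NPY-tet replicate 2, against 14900 to 33070 CPM in the resting-hair set. Col1a1, a chain of type I collagen, read 9146, 423.1 and 5670 CPM in the hair-growth set. It read 7105, 3269, 3592 and 3809 CPM in wild-type replicates 1 to 4 and 10020 CPM in NPY-tet replicate 3. Its value in NPY-tet replicate 1 was below all 7 others, which overlapped between the sets. Loxl1, which helps cross-link elastin, read 74.8, 38.2 and 56.9 CPM against 80.4 to 127 CPM (-0.76 ± 0.22; edgeR adjusted p = 0.162). The list median was -0.0978, and its direction turned with single libraries: it was 0.204 without NPY-tet replicate 1, where 2 genes were called higher, 0.421 without NPY-tet replicate 3 and -0.753 without wild-type replicate 5. Leaving out wild-type replicate 1 gave -0.0201, wild-type replicate 2 gave -0.149, and it was -0.22 without NPY-tet replicate 2, and 1 gene was called higher without NPY-tet replicate 2 or 3.

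No basal epidermis gene (10 measured, median -0.06, and -0.126 to -0.00546 over each library left out) and no gene of the differentiated layers (22 measured, median -0.11, and -0.224 to -0.0186) passed. In the differentiated layers Krt1, Krt10 and Krt77 were lower without overlap and Ivl, involucrin, higher, and in the basal list Trp63 was higher. Over the 18437 genes 6.36% were lower and 6.54% higher without overlap. Sebaceous gland genes held no call among 15, where 13 were above 0 and 3 (Soat1, Mc5r and Elovl4) were higher without overlap (median 0.28). The median was 0.0922 without NPY-tet replicate 3 and 0.465 without wild-type replicate 5, and 1 gene was called higher without NPY-tet replicate 1. Elovl4, which makes very long fatty acids, read 436, 667 and 632 CPM against 332 to 412 CPM.

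Of 13 measured keratinocyte alarm genes, 3 passed, all higher, and 6 were higher without overlap (median 0.73). Sprr1a, a small proline-rich precursor of the cornified envelope, read 548, 234 and 167 CPM against 60.3 to 98.3 CPM (2.03 ± 0.34; edgeR adjusted p = 0.0294). Sprr1b read 3.75, 1.13 and 2.22 CPM against 0.0800 to 0.444 CPM (3.59 ± 0.55; edgeR adjusted p = 0.00655), and Sprr2h was the third. S100a8, an alarm protein shared by keratinocytes and neutrophils, read 10.4 CPM in NPY-tet replicate 1, 1.50 and 1.27 CPM in the rest of the set, and 0.836 to 0.952 CPM in the resting-hair set. The neutrophil genes Cxcr2, Mmp8, Ly6g, Ngp, Camp and Ltf had too few counts to be tested.

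Immune genes held no call apart from Kit in the lists of macrophages, dendritic and Langerhans cells, T cells, dendritic epidermal T cells, neutrophils, mast cells, B and plasma cells, cytokines, complement, MHC class I presentation and interferon-stimulated genes. Macrophage and monocyte genes had a median of -0.27 over 20 measured (-0.411 without NPY-tet replicate 1 and -0.172 without NPY-tet replicate 2). Lower without overlap were 3 of 20 (Adgre1, F13a1 and Cd209f), against 6.36% of the 18437 genes, and 1 was called lower without NPY-tet replicate 1. Folr2, a receptor of resident dermal macrophages, read 10.2, 4.97 and 4.28 CPM against 9.20 to 15.2 CPM. Complement and acute phase genes had a median of -0.33 over 15 (-0.766 without wild-type replicate 5 and -0.161 without NPY-tet replicate 3), with 4 lower without overlap. C3 read 867, 620 and 452 CPM against 913 to 1707 CPM (-0.67 ± 0.25; edgeR adjusted p = 0.295), and adipocytes also make C3 and Cfd.

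Interferon-stimulated genes, 28 measured, had a median of -0.26 (-0.117 without wild-type replicate 4, -0.388 without NPY-tet replicate 3). Lower without overlap were 3 of 28, against 6.36% of the 18437 genes. Ifit3 read 10.2, 3.53 and 7.89 CPM against 29.5, 27.4, 14.7, 14.2 and 11.6 CPM from the highest to the lowest resting-hair library. Wild-type replicates 2 and 4 thus led the resting-hair set, and NPY-tet replicate 3 lay close to the hair-growth set. MHC class I genes had a median of -0.26 over 11 (-0.152 without NPY-tet replicate 3), with H2-D1 and Psmb8 lower without overlap. T cell genes had a median of -0.04 over 17 (-0.0972 to 0.0558 over each library left out). B and plasma cell genes were set by single libraries: Igha read 276 CPM in wild-type replicate 5 and 145 CPM in NPY-tet replicate 1, but 42.8 CPM in NPY-tet replicate 2, against 35.5 to 135 CPM.

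**Figure D5:**
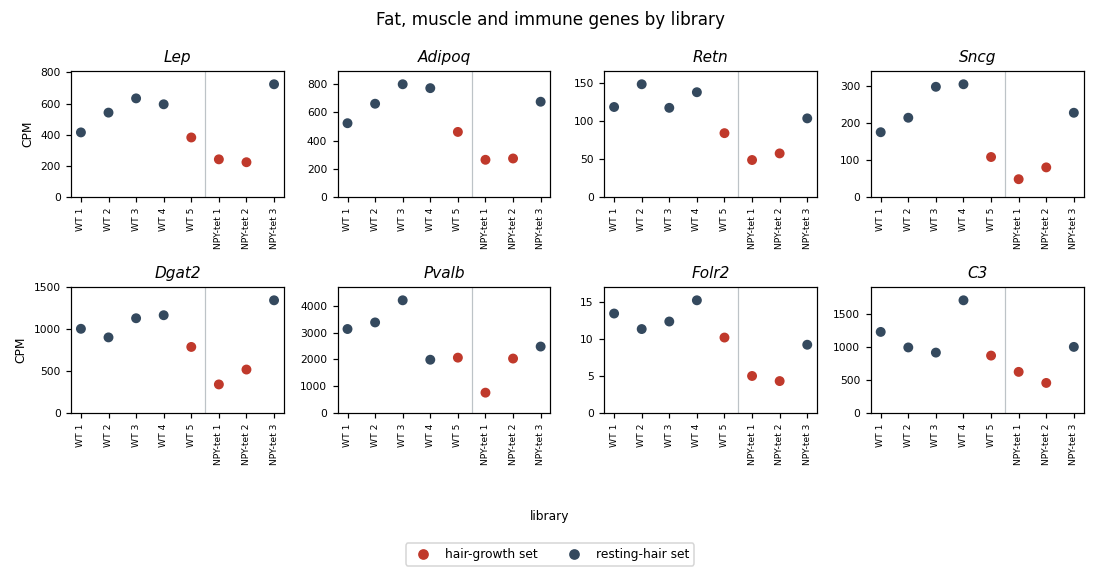
CPM of 8 genes of fat, muscle and immune cells in each library, with the hair-growth set in red and a grey line between the genotypes. Lep, Adipoq, Retn, Sncg, Dgat2 and C3 were lower in each red library than in any blue one, while Pvalb and Folr2 overlapped.

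Outside the lists, the genes with the largest called differences in the upward direction included membrane and secreted proteins. Pinlyp, an inhibitor of phospholipase, read 113, 33.8 and 24.7 CPM against 2.05 to 7.10 CPM (4.21 ± 0.57; edgeR adjusted p = 0.0233). Car6, a secreted carbonic anhydrase, read 35.2, 12.4 and 12.3 CPM against 2.23 to 4.66 CPM (2.71 ± 0.29; edgeR adjusted p = 0.00136). Bambi, a decoy receptor of BMP and activin signals, read 23.6, 11.1 and 17.1 CPM against 2.38 to 5.33 CPM (2.12 ± 0.30; edgeR adjusted p = 0.00572). Cpm, a carboxypeptidase, read 122, 57.4 and 67.6 CPM against 20.0 to 25.3 CPM (1.96 ± 0.20; edgeR adjusted p = 0.000717). Slc7a8, a neutral amino acid transporter, read 68.5, 32.1 and 38.3 CPM against 10.7 to 15.0 CPM (1.95 ± 0.22; edgeR adjusted p = 0.00174). Ly6g6g, Samd5, Golga7b, Mab21l4 and Trim59 completed the 10 named by the rule, with log2 differences of 1.65 to 3.27.

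In the downward direction the 10 genes named by the rule fell by 1.06 to 1.69 on the log2 scale. Sncg, gamma-synuclein, read 108, 47.5 and 79.5 CPM against 175 to 305 CPM (-1.49 ± 0.27; edgeR adjusted p = 0.0242). Nnat, neuronatin, read 274, 169 and 138 CPM against 381 to 708 CPM (-1.11 ± 0.22; edgeR adjusted p = 0.0295). Dmrt2 read 5.18, 5.20 and 3.58 CPM against 10.3 to 19.0 CPM (-1.65 ± 0.25; edgeR adjusted p = 0.00583). Lctl, a klotho-like protein, read 3.38, 0.953 and 1.84 CPM against 6.41 to 7.76 CPM (-1.69 ± 0.33; edgeR adjusted p = 0.0282). Ifi27l2a, an interferon-inducible gene, read 140, 69.7 and 77.3 CPM against 213 to 409 CPM (-1.29 ± 0.26; edgeR adjusted p = 0.0348). Cela1, Ltc4s, Aldh1a7, Gsta3 and Aldh1l1 were the remaining 5, at -1.41 to -1.06.

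The genes whose log2 CPM lay closest to the hair score over the 8 libraries were Gjb2, Gprc5d, Crym, Lrrc15, Tchhl1, Unc5b, Tgm6, Gm10229, Slc30a1 and Lyg2. No coefficient is given, since the libraries form 2 sets. Gjb2, the gap junction protein connexin 26, read 190, 64.5 and 117 CPM, then 15.0 and 14.5 CPM in the intermediate libraries and 4.16 to 5.52 CPM in the other 3. Tgm6, a transglutaminase, read 24.7, 6.49 and 13.6 CPM, 0.412 and 0.778 CPM, and 0 to 0.0400 CPM in the same order. Slc30a1, a zinc exporter, was expressed throughout and spanned less, at 71.0, 52.7 and 59.8 CPM against 28.0 to 34.7 CPM (1.05 ± 0.14; edgeR adjusted p = 0.00285).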

How the data were processed

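RNA of whole skin from 8 male mice (5 wild-type, 3 NPY-tet) was selected with poly-T beads and made into non-directional libraries, per the labels' protocols, so reads of a gene and of an overlapping antisense gene cannot be told apart. The authors deposited raw counts per Ensembl gene and FPKM, with 1 column per mouse. Per the submitters' processing notes the build was mm39 and the tools were DESeq2 1.20.0, featureCounts 1.5.0-p3, HISAT2 2.0.5 and CASAVA, without their roles. The FPKM deposited by the authors were used for levels between genes and in 2 alternatives. Columns were joined to mice by sample titles. From the 3rd sample on, the descriptions also hold a library name whose mouse number exceeds that of the title by 1, while the genotype is the same.

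Counts were analysed with edgeR 4.0.16 in R 4.3.3: filterByExpr by genotype, TMM scaling, a robust quasi-likelihood fit with hair set and genotype, and a two-sided F-test with Benjamini-Hochberg adjustment over 18495 genes (threshold 0.05). CPM are TMM-scaled, and scores are mean log2 CPM with a prior count of 2. Differences are log2 ± SE. This SE was calculated back from the test, as the absolute log2 difference divided by the square root of F. The hair set and genotype interaction was fitted once. The set members, the 39 gene lists and the rule for named genes were chosen with earlier results of these data known. The rule took the 6 markers, the 10 most abundant hair keratin or Krtap genes, and from each list the 5 (8 for follicle, fat, muscle and pigment lists) members of at least 1 CPM with the largest difference. Outside the lists it took 10 called genes per direction of at least 5 CPM without overlap, and the 10 genes closest to the hair score. List members named for overlap or a call, and Krt74, Vdr, Dsc2, Hephl1, Krt17, Sprr2h, Lgr5 and Lhx2 where the rule did not take them, were chosen after their values were seen, as was the split of Krtap genes into classes. Deviations of libraries with the same replicate number correlated at -0.0439, -0.105 and 0.298. Replicate numbers 1 and 2 each join a resting-hair with a hair-growth library, and number 3 joins resting-hair libraries of both genotypes. These values therefore cannot show whether the numbers pair the mice, and the main fit used no pairing. The edgeR fit, and no other step, was run on simulated counts with known changes and the hair set fixed beforehand. Alternatives were other size factors, filters, limma 3.58.1, DESeq2 1.42.0, other covariates, wild-type libraries only, the replicate block and each library left out.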

Additional observations from a re-analysis of the deposited data

Results flagged for a closer look

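Among 69 measures examined (39 list scores, 4 library measures and 26 named genes), 3 had 1 library far from the other 4 of the resting-hair set, by a gap of more than 0.71 of the whole range. Chance marks about 1 in 20 such groups. Krt33b read 5.74 CPM in NPY-tet replicate 3, with the next library at 1.30 CPM. As a gene that chose the sets, its spread within the resting-hair set is shaped by that choice, and its mark is a description only. Pinlyp read 7.10 CPM in wild-type replicate 1, with the next at 3.46 CPM. Ifi27l2a read 408.9 CPM in wild-type replicate 4, with the next at 244.9 CPM.

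The difference between the hair sets depended on genotype in 1 gene of 18495 by edgeR's interaction test. Mup22, a major urinary protein gene of a family of near-identical copies, had an interaction of 14.89 on the log2 scale (edgeR adjusted p = 0.00247). It read 25.5 to 38.8 CPM in wild-type replicates 1 to 4 and 0 in wild-type replicate 5, against 6.95 and 12.4 CPM in NPY-tet replicates 1 and 2 and 3.06 CPM in NPY-tet replicate 3. Each genotype has 1 library on one side of this comparison, and reads of the copies may be divided among them. At an unadjusted p under 0.05 the interaction was seen in 1075 genes.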

How the results depend on the processing

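Of 225 genes called (188 higher, 37 lower; hair keratins and Krtap genes are not counted), the counts were 451 (304 and 147) with no filter, 526 (339 and 187) with DESeq2, 482 (316 and 166) with no genotype term, 142 (126 and 16) in wild-type libraries only, and 91 (88 and 3) at an adjusted p under 0.01. Each count holds the calls of its own setting and is not the number kept from the 225. The wild-type libraries alone set 1 hair-growth library against 4 resting-hair libraries, so the count there is a description only. Of the 225 genes, 136 had a value in that setting, and all 136 kept their direction. With the hair score as a continuous covariate 283 were higher and 21 lower. The lower count was 21 and 19 by limma on log2(FPKM + 1) and log2(FPKM + 0.1), 12 with a covariate for high or low ribosomal RNA, and 10 without wild-type replicate 1 and NPY-tet replicate 3, an alternative chosen after seeing the data. Leaving out each library in turn gave 0 to 295 calls, 0 to 265 higher and 0 to 30 lower; the 0 was without wild-type replicate 5, where 1571 genes had an unadjusted p under 0.05.

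With the replicate number as a block, which leaves 1 residual degree of freedom, 2 genes were called, 2 higher and 0 lower, and the medians were -0.742 (white adipocyte) and 0.182 (skeletal muscle). The macrophage median was -0.459 with no genotype term, and the pigment median was 1.26 without the 2 intermediate libraries. Over each library left out, medians spanned 0.554 to 1.22 (pigment), -0.896 to -0.402 (white adipocyte), -0.411 to -0.172 (macrophage), -0.327 to -0.0585 (skeletal muscle) and -0.388 to -0.117 (interferon). The causes were not tested. None of the 45 named genes called reversed under the alternatives run. They were named for a large difference or for sets without overlap, so a reversal was unlikely from the start. All 45 lost the call with the replicate block and without wild-type replicate 5. The call was lost in 21 without wild-type replicate 2, in 19 by limma on log2(FPKM + 0.1) and in 0 with DESeq2. With the replicate block, 218 of the 225 called genes kept their direction.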
